A study of Mus musculus with 4 samples.

Results

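The 8 genes described here, all known for promoter DNA methylation in human colorectal cancer, are Crabp1, Rarb, Mgmt, Hic1, Timp3, Thbs1, Tmeff2 and Myod1, measured in mouse intestine at 3 and 32 months of age. All 8, of 16669 gene names on 2 custom Agilent arrays, were found by name, with 52 probes in 9 regions of 19133. Genomic DNA from intestine of C57BL/6 mice, an inbred strain, was labelled green (Cy3) at 3 months and red (Cy5) at 32 months on both arrays. The first array held chromosomes 1 to 8 and the second chromosomes 9 to 19, X and Y, so that 4 of the genes lay on each. A file header of the first array marks both ages as WT, and no further allele or treatment is named. The same header also reads RMCA, a term left unexplained there and in the labels. Each array carried 1 sample of each age, with the dyes never swapped, so age and dye cannot be told apart, no test between ages was possible, and every SD below is a spread over probes. The sources used here do not give the number of animals behind a sample, their sex, the part of the intestine or the step that separates methylated from unmethylated DNA. Values are therefore given as signal, and defining markers of the tissue could not be checked, since DNA was hybridised and not RNA.

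In mammals, DNA methylation is placed mainly on cytosines followed by guanine (CpG), and dense CpG stretches at promoters, called CpG islands, are mostly free of it in normal cells. In colorectal cancer a share of such islands becomes methylated and the gene is often silent, and several of the genes concerned, MYOD1 among them, were followed as markers of age in normal colon. The group holds 2 genes of retinoic acid handling, a DNA repair gene, a repressor gene, 3 genes of secreted or surface proteins and a muscle factor gene.

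Of the 52 probes, 46 were usable, meaning well above background at 1 age at least and without an outlier flag. The other 6 were not well above background at either age and lay in Mgmt, Timp3, Thbs1 and Myod1. No probe of the group was saturated. Ratios are log2 of 32-month over 3-month processed signal, centred on the median of the usable probes of the array, with values above 0 for more signal at the older age. A region joins probes of a gene that lie at most 1000 bp apart and needs at least 2 usable probes. It was called higher when its median was at least 1, a 2-fold difference, with every usable probe above 0, and lower in the mirrored case. Even if signal follows methylation, which is not stated, bulk tissue cannot separate more cells with a methylated copy from more such copies per cell.

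The sequences of the probes that carry the main differences are shown first, each as the array holds it, 5′ to 3′, with every CpG in capitals. The first set is Crabp1 on chromosome 9, in order of position, the only gene of the 8 called higher, where low and high ratios adjoin.
Crabp1 probe 1: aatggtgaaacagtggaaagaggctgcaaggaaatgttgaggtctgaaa
Crabp1 probe 2: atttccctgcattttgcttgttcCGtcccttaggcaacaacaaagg
Crabp1 probe 3: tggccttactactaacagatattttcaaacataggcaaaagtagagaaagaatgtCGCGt
Crabp1 probe 4: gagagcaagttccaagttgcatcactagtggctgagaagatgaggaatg
Crabp1 probe 5: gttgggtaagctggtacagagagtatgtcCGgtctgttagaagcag
The retinoic acid receptor gene Rarb, on chromosome 14, is shown for the step between its probes 1 and 2.
Rarb probe 1: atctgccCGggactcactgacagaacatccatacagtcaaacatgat
Rarb probe 2: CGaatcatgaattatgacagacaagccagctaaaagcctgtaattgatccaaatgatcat
Rarb probe 3: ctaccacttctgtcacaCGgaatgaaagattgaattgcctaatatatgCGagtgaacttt
Rarb probe 4: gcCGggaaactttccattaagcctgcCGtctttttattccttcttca
Rarb probe 5: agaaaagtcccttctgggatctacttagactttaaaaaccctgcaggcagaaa
From Tmeff2, on chromosome 1, 3 probes are shown because only the middle one stood apart.
Tmeff2 probe 3: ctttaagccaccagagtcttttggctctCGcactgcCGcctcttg
Tmeff2 probe 4: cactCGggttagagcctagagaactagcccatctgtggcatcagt
Tmeff2 probe 5: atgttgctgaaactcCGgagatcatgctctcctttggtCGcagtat
From Myod1, on chromosome 7, 3 probes span the border between low and high ratios.
Myod1 probe 6: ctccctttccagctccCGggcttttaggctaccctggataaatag
Myod1 probe 7: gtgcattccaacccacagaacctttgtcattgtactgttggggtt
Myod1 probe 8: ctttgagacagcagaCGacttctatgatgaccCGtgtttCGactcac
The last pair is from Mgmt, also on chromosome 7, where neighbours lay on opposite sides of 0.
Mgmt probe 4: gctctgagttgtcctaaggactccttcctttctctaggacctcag
Mgmt probe 5: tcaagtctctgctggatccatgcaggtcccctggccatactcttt

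By the calling rule 1 of the 8 genes, Crabp1, was higher at 32 months and none was lower. Over all genes measured on both arrays 2.04% of 14495 were called higher and 0.849% lower, and of 15352 measured regions 1.79% and 0.723%. Higher regions made up 71.2% of all called regions, and 91.1% after normexp background correction. With that correction Crabp1 was no longer called and Rarb was called in its place, as described with each gene. At the level of single probes, 10 of the 46 usable probes were at least 2-fold higher at 32 months and 1 was at least 2-fold lower. The shares were 21.7% and 2.17%, against 5.91% and 3.82% of all 62410 usable probes. Of the 10, 7 were at least 4-fold higher and 5 at least 8-fold, or 15.2% and 10.9% of the 46. Over all usable probes these shares were 1.91% and 0.803%. The 10 came from 5 genes, Crabp1, Rarb, Tmeff2, Myod1 and Mgmt, while Hic1, Timp3 and Thbs1 had no probe past 2-fold in either direction. The median over the 8 genes was 0.12 and that over all genes -0.0025. Probes of 1 gene are neighbours on the same DNA and are not replicates. The genes were chosen with earlier results of these data known, so the shares of their probes are a description.

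**Figure D1:**
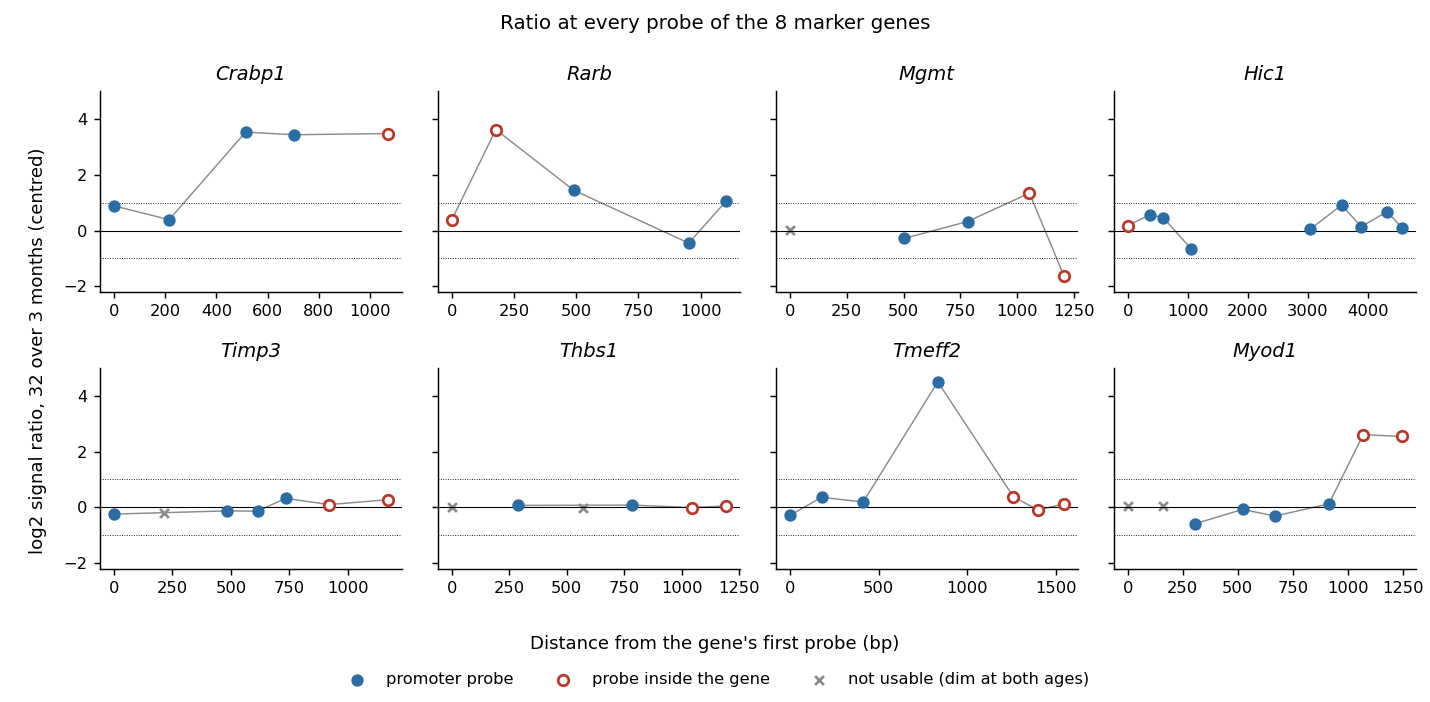
Each panel is 1 gene; the x axis is the distance in bp from its first probe and the y axis the centred log2 ratio of 32-month over 3-month signal, with filled points for probes the array design annotates as promoter, open points for those inside the gene, crosses for probes not usable and dotted lines at 2-fold. High ratios sat in blocks of 3 probes in Crabp1 and 2 in Myod1 and on a single probe in Tmeff2, beside probes with lower ratios.

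Crabp1 encodes a cytosolic protein that binds retinoic acid and steers its breakdown, and it gave the highest region median of the group. Its 5 probes lay on chromosome 9 from position 54562034 to 54563149, in coordinates whose genome build is not stated, with the first 4 annotated as promoter and the last as inside the gene. Signal at 3 months was 330, 62.9, 8860, 9230 and 3340 along the 5 probes, and at 32 months 589, 79.4, 99000, 96500 and 36000. The last 3 probes were about equally higher at 32 months, with ratios of 3.53, 3.44 and 3.48, or 11.6-, 10.8- and 11.2-fold. Probe 1 was also higher, by less, at 0.89 or 1.85-fold, and probe 2 was at 0.39. Probe 2 was not well above background at 3 months, so no fold is given for it. In the authors' deposited scanner output the error, turned from log10 to log2, was 0.39, 0.38 and 0.38 for the 3 bright probes and 1.75 for probe 2. These 3 spots lay apart on the slide, in rows 274, 82 and 62.

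The Crabp1 region had a median of 3.44 ± 1.57 (SD over 5 probes), a 10.8-fold difference, and ranked 44 among 15352 measured regions. Its spread between probes was as large as or larger than that of 97.1% of the 4799 regions with at least 5 usable probes. All 5 probes lay above 0, but their ratios differed in size, and the summary moved with the choice of probes. The mean over probes was 2.35, and leaving out 1 probe moved the median between 2.16 and 3.46. After normexp correction the median was 3.94, but its lowest probe lay at -0.15 and the call ended. Among regions with at least 3 usable probes, Crabp1 stood between those of the homeobox gene Barhl2, at 3.50 ± 1.85 over 9 probes, and of the sphingosine phosphate receptor gene S1pr1, at 3.36 ± 2.33 over 5. Neither of these was called, since a probe of each lay below 0.

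A match of the probe sequences to RefSeq promoter windows of assembly GRCm38.p6 placed 7 of the 52 probes relative to a gene start, where the window runs from 250 bases before to 50 after it. Crabp1 probe 4, one of the 3 with a high ratio, covered bases -150 to -102 from the start, which lies at position 54764748 of chromosome 9 in that assembly. The nearest measured regions of other genes were Dnaja4, 64136 bp before Crabp1, at -0.14 ± 0.17 over 2 probes, and Ireb2, 97861 bp after it, at 0.21 ± 0.61 over 3. Neither was called. No probe of Dnaja4 lay above 0, and the highest of Ireb2 was at 1.14.

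Rarb encodes a nuclear receptor that retinoic acid activates and that is silenced in many carcinomas. Its probes lay on chromosome 14 from position 15368238 to 15369392, probes 1 and 2 inside the gene and 3 to 5 in the promoter. Signal at 3 months was 4580, 314, 1260, 747 and 122, and at 32 months 5770, 3730, 3310, 527 and 245. The largest difference, at probe 2, was a ratio of 3.62 or 12.3-fold, followed by 1.45 at probe 3 and 1.06 at probe 5. Probe 1, only 131 bp from probe 2, was at 0.39, and probe 4 was on the other side of 0 at -0.45. The region median was 1.06 ± 1.53 (SD over 5 probes), just past 2-fold, and rank 377 of 15352. It was not called because of probe 4. It met the rule after normexp correction, with a median of 1.06 and the lowest probe at 0.037, and when probes more than 300 bp apart were parted, with a median of 1.45. Rarb probe 3 covered bases -44 to 15 of the RefSeq gene start at position 16575476 of chromosome 14 (GRCm38.p6). The region of Top2b, which lies 209587 bp before, had 0.67 ± 0.90 over 5 probes, and Thrb, after it, -0.22 ± 0.63 over 6, neither called.

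Tmeff2 encodes a membrane protein with follistatin-like domains and an EGF-like domain, and it had the largest single difference of the group. Its 7 probes lay on chromosome 1 from position 50871053 to 50872640 and all were well above background at both ages. Signal at 3 months was 756, 802, 6510, 13700, 1050, 1060 and 1570. At 32 months it was 605, 1010, 7280, 305000, 1340, 971 and 1680. The ratios of 6 probes ran from -0.29 to 0.38, and probe 4 alone was at least 2-fold higher at 32 months, at 4.51 or 22.7-fold. In the authors' deposited scanner output the error of that spot was 0.47 on the log2 scale. The region median was therefore 0.19 ± 1.68 (SD over 7 probes), without a call. Probe 4 covered bases -182 to -138 from the gene start at position 50927523 of chromosome 1 in GRCm38.p6, and its neighbours lay 376 and 381 bp away. One spot carries this difference, and no second spot within 300 bp of it checks it.

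Myod1 encodes the factor that starts the skeletal muscle program. Its 8 probes ran on chromosome 7 from position 46243534 to 46244826, and the first 2 were not usable. Signal of probes 3 to 8 at 3 months was 248, 866, 872, 32000, 25900 and 36400, and at 32 months 161, 806, 688, 34200, 155000 and 208000. The 4 usable promoter probes had ratios from -0.59 to 0.12, and both probes inside the gene were higher at 32 months, at 2.61 and 2.54, or 6.11- and 5.83-fold. The step fell between probe 6 and probe 7, which lie 112 bp apart. The region median of 0.025 ± 1.46 (SD over 6 probes) did not show it, and it was 0.72 as a mean. On the far side of the gene the next measured region, that of the potassium channel gene Kcnc1, 19243 bp away, was itself called higher at 2.57 ± 1.01 over 3 probes. Ush1c, 134257 bp before Myod1, was at 0.064 ± 0.24 over 13. Kcnc1 was the only called region among the nearest neighbours of the 8 genes.

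Mgmt encodes the enzyme that removes alkyl groups from guanine in DNA, and its promoter methylation is read in the clinic to guide alkylating chemotherapy of brain tumours. The 4 usable probes on chromosome 7, in a region from position 136732043 to 136733292, had 3-month signals of 640, 2070, 325 and 62200 and 32-month signals of 516, 2540, 809 and 19600. Both promoter probes were close to 0, at -0.28 and 0.32. Inside the gene probe 4 was higher at 32 months, at 1.34 or 2.54-fold, and probe 5, only 108 bp further, was lower, at -1.64 or 3.11-fold. The errors in the authors' deposited scanner output were 0.35 and 0.25 on the log2 scale for these 2 spots. Probe 5 was the only one of the group at least 2-fold lower. The region median was 0.021 ± 1.25 (SD over 4 probes), and its sign turned with the setting, between -0.012 and 0.19. The mean over probes was -0.063.

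**Figure D2:**
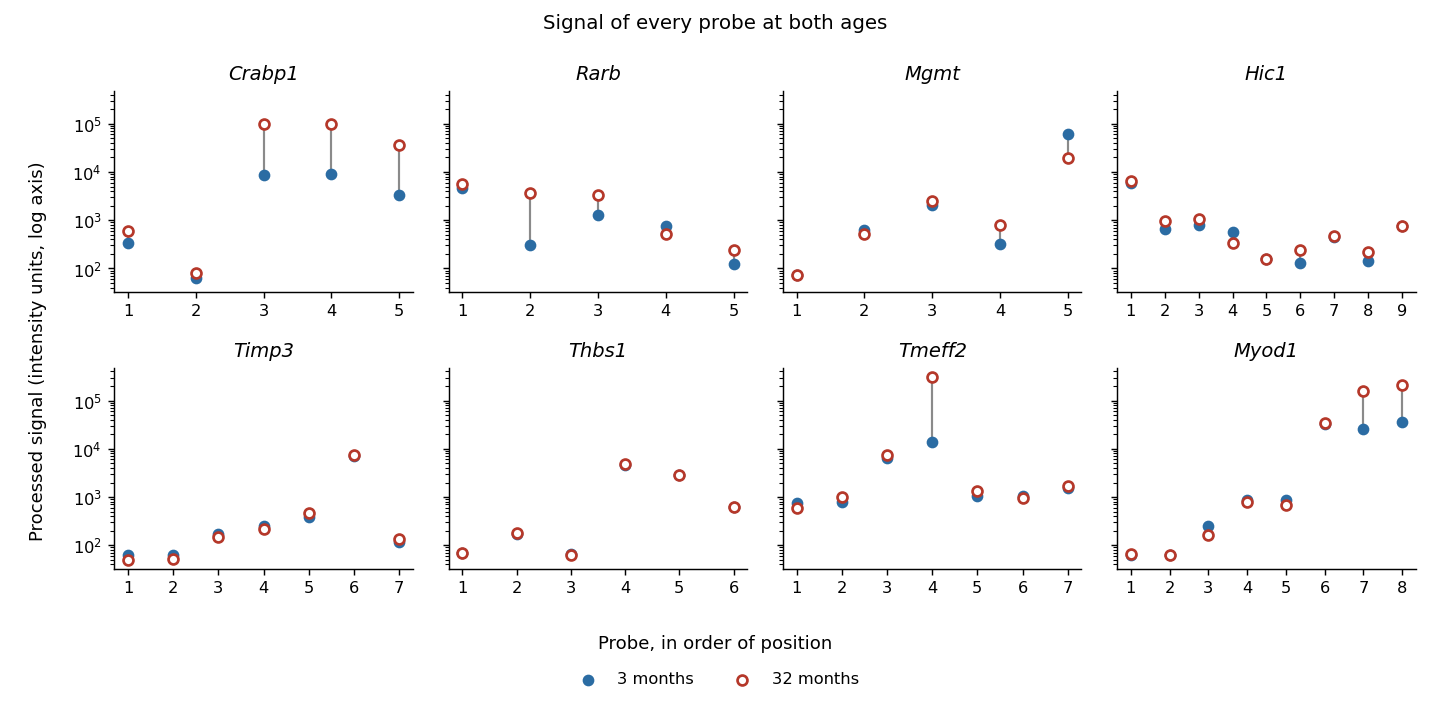
Processed signal (intensity, log axis) of every probe, in order of position, at 3 months (filled) and 32 months (open), joined by a line. In Thbs1 and Timp3 the 2 ages nearly coincide at each probe, while Crabp1 probes 3 to 5 lay between 3340 and 9230 at 3 months and between 36000 and 99000 at 32 months.

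Hic1, a zinc finger repressor gene named for its methylation in cancer, gave 9 usable probes in 2 regions on chromosome 11. The first, from position 74985570 to 74986676, had 3-month signals of 5990, 666, 808 and 560 and 32-month signals of 6540, 954, 1070 and 341. Its median was 0.32 ± 0.56 (SD over 4 probes), with the lowest probe at -0.66 and the highest at 0.57. The second, from 74988606 to 74990181, had 159, 132, 446, 142 and 753 at 3 months and 158, 240, 474, 219 and 777 at 32 months. All 5 probes lay above 0, but none reached 2-fold, and the median was 0.14 ± 0.40 (SD over 5 probes). The lowest probe of this region lay below 0 with uncentred ratios, at -0.009, and after normexp correction, at -0.13. The highest ratio of the region, 0.91 at probe 6, came with an error of 0.79 on the log2 scale in the authors' deposited scanner output. Neither region was called, and the nearest other gene measured after them, Ovca2, was at -0.060 ± 0.12 over 2 probes.

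Timp3 and Thbs1 had the narrowest ranges over probes with the processed signals. Timp3 encodes a matrix-bound inhibitor of metalloproteinases. Its 6 usable probes on chromosome 10, in a region from position 85729403 to 85730619, had signals from 62.2 to 7180 at 3 months and from 50.7 to 7410 at 32 months. Their ratios ran from -0.24 to 0.32, with a median of -0.015 ± 0.24 (SD over 6 probes). The most distant promoter probe was not well above background at 32 months, so no fold is given for it. Thbs1 encodes thrombospondin, a matrix protein that restrains vessel growth. Its 4 usable probes on chromosome 2, in a region from 117802391 to 117803634, had signals of 173, 4680, 2910 and 611 at 3 months and 178, 4850, 2840 and 619 at 32 months. The median was 0.059 ± 0.039 (SD over 4 probes), the smallest spread of the 9 regions with the processed signals. After normexp correction it was 0.12 ± 0.22, and Hic1 region 2 had the smaller spread, 0.21. No usable probe of Thbs1 exceeded a ratio of 0.080.

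**Figure D3:**
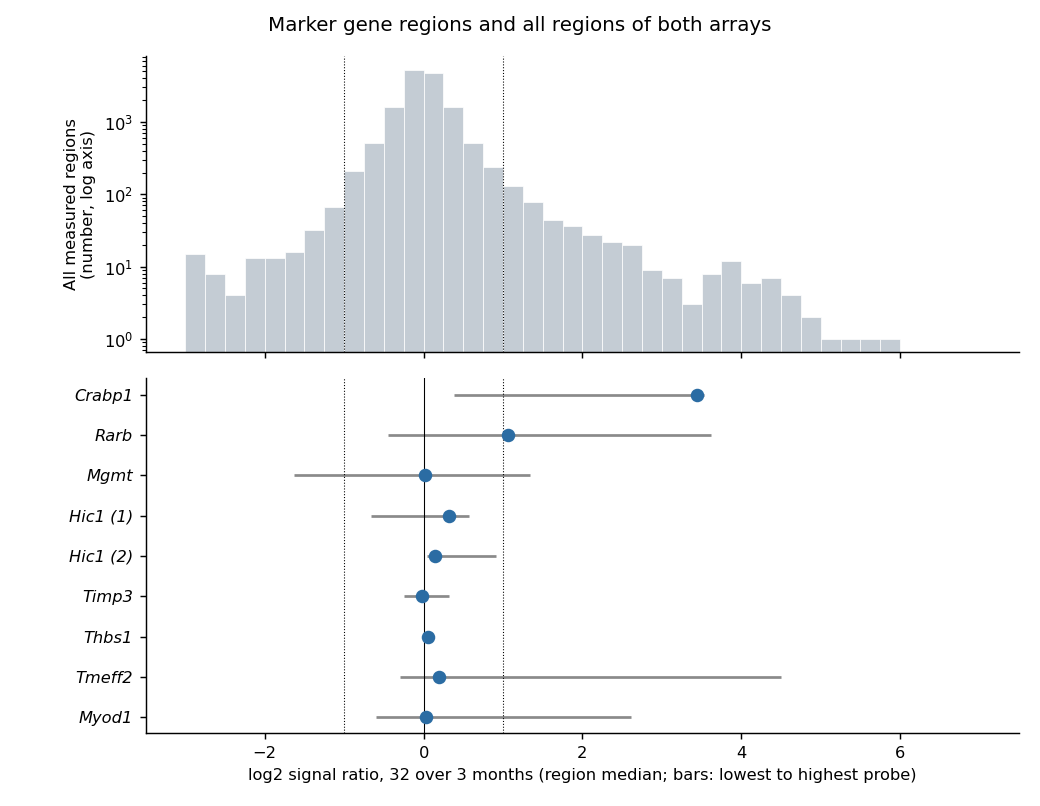
Top, number of measured regions of both arrays (log axis) by median log2 ratio of 32 over 3 months, in bins, with medians under -3 counted in the first bar. Bottom, the 9 regions on the same axis, with the median as a point and a bar from the lowest to the highest probe; Crabp1 lies at 3.44, Rarb at 1.06 and the other 7 between -0.015 and 0.32.

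In Rarb, Tmeff2 and Myod1 high probes adjoined probes near 0, while in Crabp1 all 5 probes lay above 0 and its lowest was dim at 3 months. A second rule, chosen after these values were seen, asked for a run of at least 2 neighbouring usable probes that were each at least 2-fold higher. By it Crabp1, Rarb and Myod1, 3 of the 8 genes, were higher, against 4.35% of all genes. Among regions of at least 5 usable probes, 3 of 6 in the group held such a run, against 7.71% of 4799, while the first rule called 1 of the 6 and 1.73%. None of the 6 held a run of lower probes, but only 3.4% of the 4799 did. Of the 6, 2, Tmeff2 and Myod1, had a median under 1 together with a probe at least 4-fold higher, as did 5.23% of the 4799. The spread over probes of Crabp1, Rarb, Tmeff2 and Myod1 was at or above that of 96.5% or more of these regions. These genes were singled out after the values were known, so the shares are a description.

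High probes of the group were found at every number of CpGs per probe. Of 14 usable probes without a CpG 4 were at least 2-fold higher, of 15 with 1 CpG 3 were, of 12 with 2 CpGs 2 were, and of 5 with at least 3 CpGs 1 was. Over all usable probes the share at least 2-fold higher went from 4.46% without a CpG to 8.79% with at least 3. Among the sequences printed above, Crabp1 probe 4 and Myod1 probe 7 hold no CpG and had ratios of 3.44 and 2.61.

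The letters CCCGGG, which read the same on both strands and are cut by the restriction enzymes SmaI and XmaI, were searched in probes and promoters. Several published methods select methylated DNA at such sites, but no source used here says whether this study did, beyond the unexplained abbreviation RMCA. Of the 52 probes 3 hold them, Rarb probe 1, Hic1 probe 4 and Myod1 probe 6, with ratios of 0.39, -0.66 and 0.12. Over both arrays 0.393% of usable probes hold the letters, and 10.2% of these were at least 2-fold higher, against 5.89% of the others. They were also more often at least 2-fold lower, 5.71% against 3.82%, and their median was -0.052. Of 32900 RefSeq promoter windows of 300 bases (GRCm38.p6), 13.5% hold them, as do those of Tmeff2, Rarb and Hic1, while the windows of Crabp1, Mgmt and Timp3 do not. Thbs1 and Myod1 were not matched to a window. Crabp1 probe 4, with a ratio of 3.44, lies in a window without the letters. Hic1 probe 4, with a ratio of -0.66, lies in a window with the letters. The windows of Tmeff2 and Rarb hold both the letters and a probe with a high ratio. They are shown with the letters in capitals, for Tmeff2 the plus strand (chromosome 1, 50927273 to 50927572) and for Rarb the minus strand (chromosome 14, 16575427 to 16575726).
Tmeff2 promoter: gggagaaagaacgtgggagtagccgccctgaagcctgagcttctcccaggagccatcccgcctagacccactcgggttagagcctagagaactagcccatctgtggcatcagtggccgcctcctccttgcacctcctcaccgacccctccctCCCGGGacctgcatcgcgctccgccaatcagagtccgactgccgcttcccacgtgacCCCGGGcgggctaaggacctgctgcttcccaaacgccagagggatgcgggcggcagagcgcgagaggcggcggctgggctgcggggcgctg
Rarb promoter: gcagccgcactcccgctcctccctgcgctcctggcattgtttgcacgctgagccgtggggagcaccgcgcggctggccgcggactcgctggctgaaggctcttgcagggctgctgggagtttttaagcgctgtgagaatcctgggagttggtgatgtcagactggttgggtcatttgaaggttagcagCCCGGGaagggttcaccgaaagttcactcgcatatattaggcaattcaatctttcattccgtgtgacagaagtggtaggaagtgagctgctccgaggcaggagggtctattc
In Tmeff2 the letters begin 98 and 41 bases before the gene start, downstream of probe 4, and in Rarb 62 bases before it, upstream of probe 3. The window of Tmeff2 holds 24 CpGs and those of Rarb and Crabp1 17 each, against a median of 7 over all windows. Of all windows 70.3% hold at most 17. Windows of the other matched genes hold 24 in Timp3, 29 and 20 in Hic1, and 20 and 3 in Mgmt.

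Among further genes known for methylation in bowel cancer or the ageing colon, 5 of 50 measured members were called higher and 0 lower, from a list of 58. That is 10% of the measured genes, against 2.04% of all genes, and the list median was 0.095. The list was drawn up with earlier results of these data known, so the share is not independent evidence of a direction. Those called were Hand1, a heart and gut mesoderm factor gene, at 2.55 ± 0.97 over 6 probes, the cell cycle inhibitor gene Cdkn2a at 1.79 ± 1.05 over 3, and the cadherin gene Cdh13 at 1.59 ± 0.075 over 2. The sulfotransferase gene Chst2 had 1.40 ± 0.97 over 5 probes and the endoderm factor gene Sox17 1.30 ± 1.04 over 8. Of these 5, only Hand1 was called under every setting tried. Cdkn2a was not called with uncentred ratios, within 300 bp, with block medians removed or with centring on all probes. Chst2 was not called with uncentred ratios or after loess, Sox17 after normexp correction or with dim probes kept, and Cdh13 with dim probes kept. Hand1 had all 6 probes above 1.99, whereas those of Crabp1 ran from 0.39 to 3.53. The netrin receptor gene Unc5c, named after its values were seen, had the highest median of the list, 3.72 ± 2.96 over 7 probes, but its lowest probe at -0.42 kept it from a call. The other 45 measured genes were not called. By the rule of neighbouring high probes 11 of the 50 were higher, against 4.35% of all genes.

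**Figure D4:**
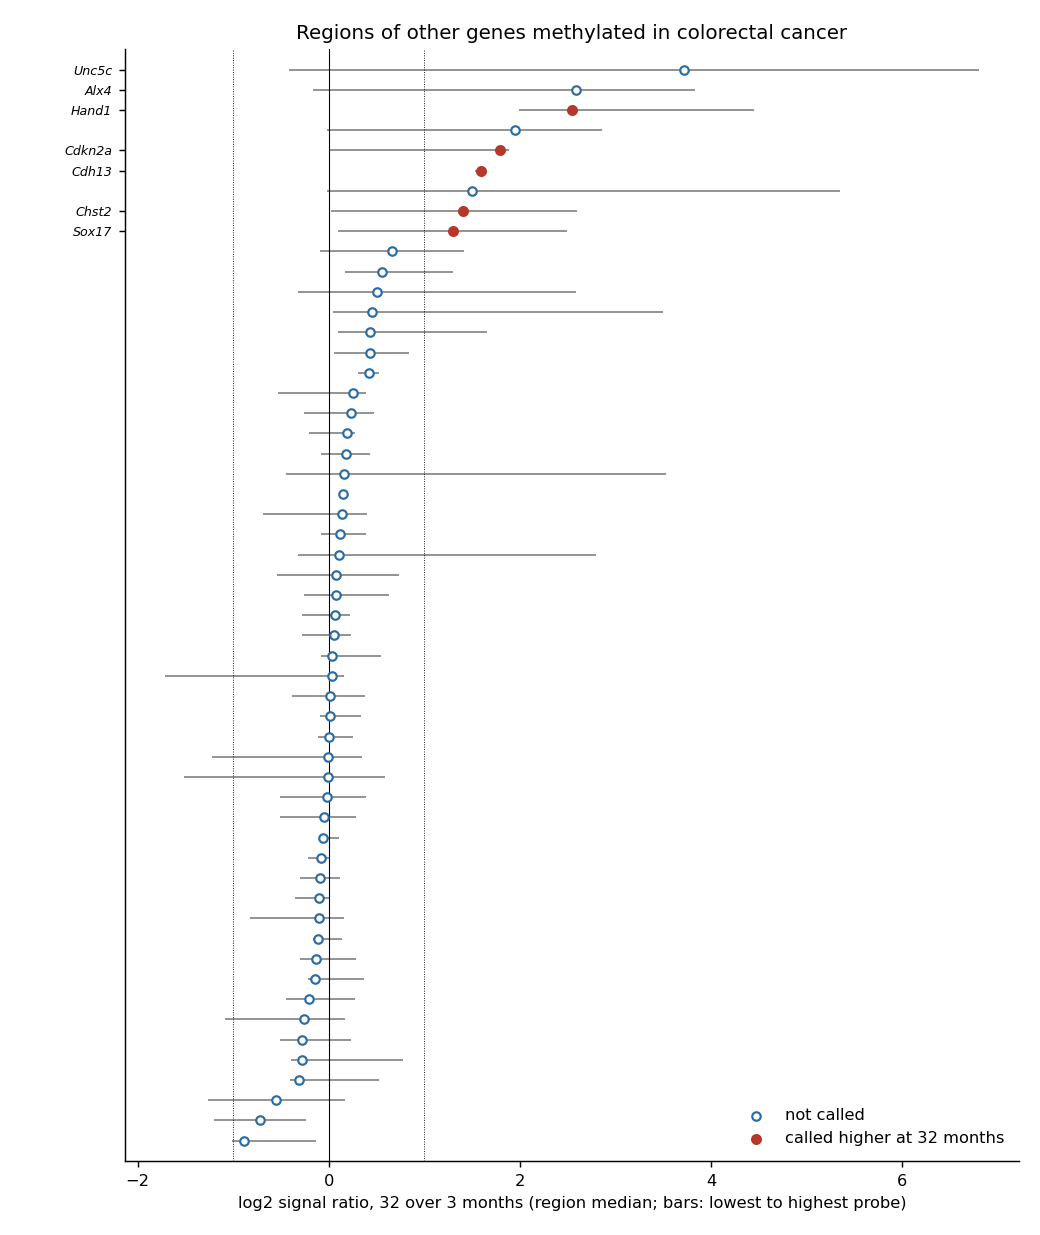
Median log2 ratio of 32 over 3 months (points) and range over probes (bars) for each measured region of the other colorectal genes, with called regions filled and only regions named in the text labelled; dotted lines mark 2-fold. Hand1 is called with all its probes above 1.99, while Unc5c at 3.72 and Alx4 at 2.59 are not called because a probe of each lies below 0.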

How the data were processed

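Genomic DNA signal was measured at 3 and 32 months on 2 arrays, each read in both dyes. The deposited intensity values are processed signals. The submitters' processing notes name Agilent Feature Extraction, version 9.1.3.1, and per the file headers it subtracted background, removed a spatial trend and applied linear dye scaling. Their value table equalled these signals within 1% in 100% of spots. The deposited log10 ratio served in an alternative, and its error as a description. The genome build of the positions is not given in the sources used here.

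Log2 ratios were centred on the array median over usable probes, -0.029 and -0.052 before centring. Usable probes numbered 62410 of 82850 with a position. Median spot intensity was 113 and 71.8 in the green channels and 203 and 135 in the red, against 80 and 61.7 and 107 and 107 for negative controls. Signal over background limits precision for dim probes. All 8 genes are named with every region; of the other colorectal genes the called ones, at most 8, were named. The genes, lists and rules were chosen with earlier results of these data known. Alternatives used limma 3.58.1 in R 4.3.3 for normexp (offset 50) and loess, and Python 3.11.15 otherwise. Files of the 2 dyes of an array were identical, and each channel was used once.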

Additional observations from a re-analysis of the deposited data

How the results depend on the processing

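Of 10 settings fixed with the design and 2 added after the data were seen, the number of the 8 genes called higher stayed at 1 in 10, was 2 (Crabp1 and Rarb) with probes joined within 300 bp, and was 3 (with Myod1) under the rule of neighbouring high probes. After normexp correction the single gene was Rarb, and in the other 9 it was Crabp1. No gene was called lower under any of the 12. For the other colorectal genes the number called higher was 3 with uncentred ratios and with dim probes kept, 9 within 300 bp, 11 under the rule of neighbouring probes and between 4 and 6 otherwise. The share of all measured regions called higher moved too, from 1.79% in the main setting to 2.88% within 300 bp. It was 3.91% under the rule of neighbouring probes, 1.57% with uncentred ratios and 1.27% with dim probes kept. The share of higher calls among all called regions was 71.2%, and 91.1% after normexp correction. The region medians of Mgmt, Timp3 and Myod1 changed sign between settings, at sizes up to 0.25, and Myod1 was at 0.72 as a mean. Medians of Crabp1 ran from 2.16 to 3.94 and of Rarb from 0.99 to 1.45. Where a call changed, the cause was not tested beyond the change itself. Ratios of probes dim at both ages rest on signal near background and entered region values only with dim probes kept. No paired analysis was possible because each age has 1 sample on an array.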

Other observations

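Of 25 measured relatives of the 8 genes 1, or 4%, was called higher, against 2.04% of all genes, and none was called lower, against 0.849%. The gene called was Thbs2, a thrombospondin gene of chromosome 17, at 1.91 ± 1.03 (SD over 4 probes), while Thbs1 had 0.059 ± 0.039. Crabp2, the other cellular retinoic acid binding protein gene, was at 0.029 ± 0.41 over 5 probes, against 3.44 for Crabp1. Of the other retinoic acid receptor genes, Rara had 0.25 ± 0.35 over 4 probes and Rarg 0.12 ± 0.62 over 5, without a call. Among the muscle factor genes beside Myod1, Myf5 had -0.084 ± 0.12 over 4 probes, Myf6 -0.20 ± 0.17 over 4 and Myog 0.41 ± 0.36 over 5. The glycosylase gene Mpg, in a region shared with Rhbdf1 and named after its values were seen, had 1.16 ± 1.26 over 3 probes and no call, since its lowest probe lay at -0.99. The list median was 0.029.

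Marker genes of cell types that the tissue can hold gave 1 of 13 epithelial genes called higher, Apoa4, with 1 of its 2 regions at 3.13 ± 0.76 over 3 probes and the other, shared with Apoc3, at 0.20 ± 0.38 over 3, and 2 of 10 immune genes, Bcl11b at 1.92 ± 0.16 over 4 and Tbx21 at 1.53 ± 0.047 over 4. None of 11 smooth muscle and stromal, 8 enteric neuron and glial and 4 endothelial genes was called, and no list had a member called lower. Over all genes the shares called were 2.04% higher and 0.849% lower. List medians lay between -0.12 for endothelium and 0.15 for epithelium. Their part in the values of the 8 genes was not tested.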
